A study of Homo sapiens with 24 samples.

Results

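Ziram is a zinc salt of dimethyldithiocarbamate used as a fungicide. It was compared with a DMSO vehicle control in dopaminergic neurons made from the human cell line LUHMES (Lund human mesencephalic). The precursor cells of this line were immortalised and can be switched to neurons. The comparison took the 3 count columns labelled Ziram and the 3 labelled DMSO, 6 of the 24 libraries of the series, and the 18852 of 58051 genes that passed an expression filter. Ziram cultures received 2 µM of the compound and control cultures 1% DMSO, both for 6 h. The DMSO content of the Ziram cultures is not given, so a difference in solvent cannot be told apart from the compound. Differentiation had been induced in all cultures with tetracycline, cAMP and GDNF. The other 18 libraries, used here to estimate the spread of each gene and for direct tests against Ziram, came from cultures given for 6 h 5 µM MPP (a mitochondrial toxicant taken up by dopaminergic neurons), 5 µM Paraquat (a redox-cycling herbicide), 5 µM MS275 (which inhibits histone deacetylases), 1 µM Rotenone (an inhibitor of respiratory complex I), 1 µM 6-HD (labelled as a hydroxydopamine) or 0.5 µM Methyl_mercury, 3 libraries each. All libraries came from 1 cell line. The p-values rest on the spread between the 3 libraries within a group, pooled over all 8 groups.

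Dithiocarbamates bind metal ions through their sulfur atoms and can carry zinc and copper across membranes. Cells sense free zinc mainly through the transcription factor MTF1, which binds metal response elements upstream of the metallothionein genes and of the zinc exporter SLC30A1. Metallothioneins are small, cysteine-rich proteins that hold zinc, copper and cadmium. Compounds that react with thiols are also known to act on the KEAP1-NRF2 system, which controls antioxidant genes, on the heat shock factor HSF1, which controls chaperones, and on kinases that raise ATF4, the driver of the integrated stress response.

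The libraries held between 14.3 and 33.4 megareads counted to genes in DMSO and between 29.5 and 46.9 in Ziram. Values are given as CPM, the reads of a gene per megareads of the library total scaled by the trimmed mean of M values (TMM). No pair of libraries in either group agreed within sampling noise. The median SD of a gene between the 3 libraries, on the log2 CPM scale, was 0.141 in DMSO and 0.127 in Ziram, against 0.157 to 0.29 in the other groups. The spread entering each test was pooled over all 8 groups. Transcripts of the pan-neuronal list were present in both groups, from 10290 to 11880 CPM summed in DMSO and from 9949 to 10170 CPM in Ziram, and edgeR called 0 of its 20 members (3 lower at an unadjusted p under 0.05). DESeq2 and limma-voom also called 0, the 2-group fit described below called 2 lower and the fit without DMSO replicate 3 called 1 lower. Of the defining dopaminergic genes, the dopamine transporter SLC6A3 stood at 636 CPM in DMSO, tyrosine hydroxylase TH at 50.8 CPM and the receptor DRD2 at 80.1 CPM, whereas the vesicular monoamine transporter SLC18A2 stood at 0.32 CPM and LMX1A, FOXA1, FOXA2 and ALDH1A1 had too few reads to be tested. In bulk RNA, fewer cells of a type and less RNA per cell cannot be told apart. The glutamate transporter SLC17A6, a marker of another neuron type, stood at 268 CPM, and the cycling marker TOP2A at 141 CPM.

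The response was small in number and dominated by a few very large rises. Of 18852 genes, 100 (0.53%) passed the edgeR quasi-likelihood test at a Benjamini-Hochberg adjusted p under 0.05, 77 of them (0.408%) higher and 23 (0.122%) lower in Ziram. At 2-fold or more there were 38 higher genes (0.202%) and 1 lower gene (0.0053%). Among the higher genes 12 rose 16-fold or more, 26 between 2-fold and 16-fold, 25 between 1.5-fold and 2-fold and 14 by less, while 18 of the 23 lower genes fell by less than 1.5-fold. All 100 had no overlap between the 3 Ziram and the 3 DMSO libraries, a state that 11% of all tested genes showed in the upward and 10.2% in the downward direction. At an unadjusted p under 0.05 the counts were 702 genes higher (3.72%) and 521 lower (2.76%). Of the 100 genes, 98 are protein-coding and 2 are transcribed pseudogenes. The count rested on single libraries: 40 genes (36 higher, 4 lower) were called without Ziram replicate 1, 42 without DMSO replicate 2, 58 without DMSO replicate 1 and from 69 to 74 without any one of the others. Of the 100 calls, 39 (35 higher and 4 lower) were made in all 6 of these fits. With the DMSO and Ziram libraries fitted alone 586 genes were called, 363 higher and 223 lower, including all 100. With library totals as the only scaling 88.7% of the calls were higher, against 77% here.

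**Figure D1:**
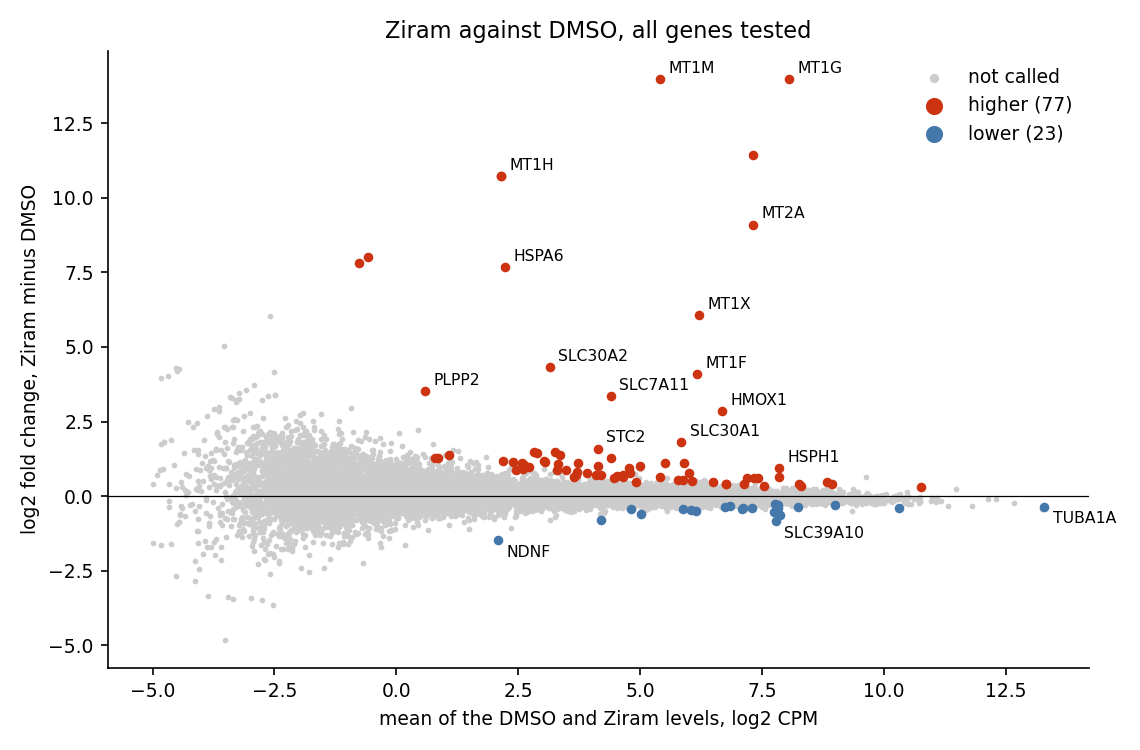
Each point is 1 gene; the horizontal axis is the log2 of the mean of the 2 group levels in CPM and the vertical axis the log2 fold change of Ziram over DMSO from the edgeR fit, with the 77 higher genes in red, the 23 lower genes in blue and 19 genes with a mean at or below -5 left out. Fold changes of genes with no DMSO reads, such as MT1M and MT1H, depend on the prior count of the fit; the metallothioneins, HSPA6 and SLC30A2 have the highest called values, and NDNF is the lowest called gene.

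Metallothionein genes rose the most. All 9 that passed the filter were higher in Ziram (median log2 fold change 10.73, against 0.01 over all genes), as was MT1JP, a transcribed pseudogene outside the list. The filter was applied over all 8 groups. MT1M, MT1H, MT1L, MT1A and MT1JP had no DMSO read, and MT1G and MT1E averaged 0.02 and 0.09 CPM in DMSO. These genes could not have passed the filter on their DMSO reads, so the count and the median follow in part from the filter. MT1G had 0, 0.04 and 0.03 CPM in the 3 DMSO libraries and 583, 446 and 567 CPM in the 3 Ziram libraries. The 2 DMSO reads of MT1G set against its Ziram reads gave a ratio of 18830, with an exact 95% interval of 5212 to 155500 that covers counting error only (edgeR adjusted p = 2.62e-10). MT2A had 0.356, 0.606 and 0.651 CPM in DMSO and 359, 263 and 331 CPM in Ziram, a rise of 548-fold (log2 9.1 ± 0.48 SE, edgeR adjusted p = 1.99e-14). Both genes were separated from their DMSO values by more than the whole range within either group.

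MT1E stood at 0.09 ± 0.09 CPM in DMSO and 316.8 ± 41 CPM in Ziram (SD, n = 3). MT1M had no read in any DMSO library and 105, 64.6 and 84.8 CPM in Ziram, at least 1972-fold higher when set against a floor of 3 reads over the DMSO group. The same floor gave at least 207-fold for MT1H, at least 202-fold for the pseudogene MT1L, at least 31.7-fold for MT1A and at least 26.8-fold for MT1JP, none of which had a DMSO read. MT1F and MT1X differed from these in having a measurable level in the vehicle. MT1F had 6.69, 9.01 and 7.95 CPM in DMSO and 147, 117 and 146 CPM in Ziram (17.1-fold, edgeR adjusted p = 9.86e-17), and MT1X 2.63, 2.26 and 1.77 CPM against 175, 121 and 142 CPM (67.6-fold, edgeR adjusted p = 1.64e-14). The 3 remaining genes of the list had too few reads to be tested: MT1B had 0 reads in DMSO and a mean of 0.208 CPM in Ziram, and the brain-type gene MT3 and the epithelial gene MT4 stood at 0.03 and 0.01 CPM in Ziram and had no DMSO read. The call of MT1A was lost without any one of the DMSO libraries or without Ziram replicate 1 (highest adjusted p 0.0872), and that of MT1JP in each of the 6 fits that left out 1 library (highest 0.16); no other metallothionein call was lost in them. MT1JP also missed the threshold under the replicate block over all 24 libraries (edgeR adjusted p = 0.0655) and was removed by the stricter filter. DESeq2 gave no adjusted p for MT1A or MT1JP and called 8 of the 9 list members.

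**Figure D2:**
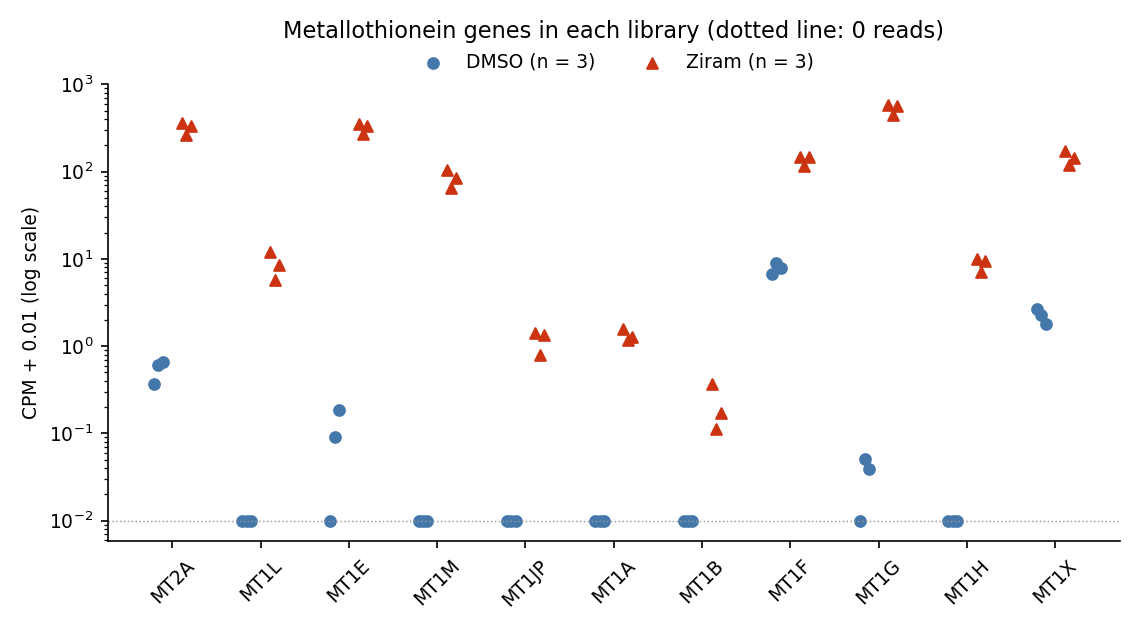
Level of 11 metallothionein genes (all but MT3 and MT4) in each library, as CPM plus 0.01 on a log scale, with genes in their order along chromosome 16; circles are the 3 DMSO libraries and triangles the 3 Ziram libraries. In DMSO only MT1F, MT1X, MT2A and, with 8 and 2 reads over the group, MT1E and MT1G were seen, and all Ziram points lie above all DMSO points of the same gene.

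Per kilobase of exon, MT1G had the highest Ziram level of the family at 709.5 CPM, followed by MT1E at 301 CPM, MT2A at 244.5 CPM, MT1M at 89.9 CPM, MT1X at 82.2 CPM and MT1F at 72.3 CPM. The order in DMSO was another one, led by MT1F at 4.17 CPM per kilobase and MT1X at 1.25 CPM per kilobase. Both orders depend on the annotation, since the length used joins all annotated exons of a gene. For MT2A and MT1X it covers the whole gene from start to end. Without division by length, MT2A (317.6 CPM) and MT1E (316.8 CPM) stood level in Ziram below MT1G (532.1 CPM). Together the family made up 1741, 1296 and 1621 CPM in Ziram replicates 1, 2 and 3, against 9.68 to 12 CPM in DMSO. The composition of this sum was alike in the 3 Ziram libraries: MT1G gave 33.4%, 34.4% and 35% of the metallothionein reads, MT2A 20.6%, 20.3% and 20.4%, and MT1E 20.1%, 20.9% and 20.3%. These genes are near-identical in sequence, so reads could have been exchanged between them or left out of the counts.

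The family lies in 1 cluster on chromosome 16 (GRCh38, 56565049 to 56684196), with MT1G (56666731 to 56668065) on the minus strand and its neighbours MT1F (56657694 to 56660698) and MT1H (56669814 to 56671129) on the plus strand. Within 300 kb on either side, 9 other genes were tested and 0 were called, with log2 fold changes from -0.14 to 0.59. The nearest of these, BBS2 upstream (45.7 CPM in DMSO and 50.2 CPM in Ziram) and the nucleoporin gene NUP93 downstream (86.1 and 85.3 CPM), had adjusted p-values of 0.9 and 0.999 in edgeR.

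The promoters of MT1H and MT1X are shown because the 2 genes differ in their vehicle level, MT1H without a read and MT1X at 2.22 CPM, and both were called. The sequences come from RefSeq (GRCh38.p14), plus strand, and end before the first annotated exon: chr16:56669564-56669813 for MT1H and chr16:56682220-56682423 for MT1X. Capitals mark the core of the metal response element, TGCACNC or TGCGCNC, on either strand.
MT1H: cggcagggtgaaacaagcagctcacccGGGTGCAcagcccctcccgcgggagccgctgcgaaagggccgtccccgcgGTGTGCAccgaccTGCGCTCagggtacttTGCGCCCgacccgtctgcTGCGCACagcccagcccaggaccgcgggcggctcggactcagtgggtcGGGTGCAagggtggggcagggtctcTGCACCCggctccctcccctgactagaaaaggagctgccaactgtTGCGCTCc
MT1X: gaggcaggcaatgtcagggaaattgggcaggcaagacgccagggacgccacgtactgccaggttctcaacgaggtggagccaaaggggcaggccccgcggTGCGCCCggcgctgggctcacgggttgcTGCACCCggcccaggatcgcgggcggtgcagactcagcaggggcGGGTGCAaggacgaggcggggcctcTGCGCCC
MT1H holds 8 matches in this window, the nearest 8 bases before the RefSeq start, and MT1X holds 4. Both have matches that begin 78 and 53 bases before the start. MT2A, the third member with an entry, has 7 matches in the 250 bases before its start. A match is a run of letters, not a measured binding site. Over the 300 bases from 250 before to 50 after the start, 29.3% of all 27305 RefSeq promoters hold at least 1 match. So do 31 of the 57 called higher genes with an entry (54.4%) and 6 of the 18 called lower genes (33.3%). Without the metallothioneins the higher genes count 28 of 54 (51.9%). The set of all promoters, here and for the elements below, was not limited to tested genes or matched for base composition or expression.

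Of the zinc transport genes, 2 exporters rose and 1 importer fell. Most members of the SLC30 family carry zinc out of the cytosol, and most members of the SLC39 family carry it in. SLC30A1, the plasma membrane exporter, had 27.8, 24.6 and 24 CPM in DMSO and 90.9, 88 and 89.2 CPM in Ziram (3.52-fold, edgeR adjusted p = 1.05e-10). SLC30A2, which loads zinc into vesicles, had 1.07, 0.889 and 0.651 CPM in DMSO and 19.5, 13.8 and 17.2 CPM in Ziram (20-fold, edgeR adjusted p = 1.81e-08). The importer SLC39A10 had 287, 281 and 278 CPM in DMSO and 169, 160 and 144 CPM in Ziram, and fell by 0.84 ± 0.09 (SE) on the log2 scale (edgeR adjusted p = 1.64e-07). SLC30A1 lies on chromosome 1 (211571568 to 211578742, minus strand) and SLC39A10 on chromosome 2 (195575977 to 195737702, plus strand; GRCh38). In all 3 genes the groups were far apart relative to their own ranges, and each call held when any 1 library was left out.

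The other members of these lists were not called. Of 10 tested exporters and MTF1, 2 were higher and 0 lower, and of 12 tested importers 0 were higher and 1 was lower. The shares over all genes were 0.408% higher and 0.122% lower. MTF1 itself stood at 12.1 CPM in DMSO and 13.8 CPM in Ziram (edgeR adjusted p = 0.96), the Golgi exporter SLC30A5 at 32.8 and 35.6 CPM, and the abundant SLC30A9 at 236 and 227 CPM. SLC39A6, the closest relative of SLC39A10, stood at 436 CPM in DMSO and 375 CPM in Ziram (log2 -0.22, adjusted p = 0.27 in edgeR), and was called in the fit of the 2 groups alone (adjusted p = 0.02). SLC39A14, an importer of zinc, iron and manganese, stood at 120 and 126 CPM.

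The sequences before the exporter genes are shown for comparison with the metallothioneins, with the same element in capitals. They are written 5′ to 3′ on the minus strand (GRCh38.p14), chr1:211579162-211579411 for SLC30A1 and chr1:26046134-26046368 for SLC30A2, without annotated exons.
SLC30A1: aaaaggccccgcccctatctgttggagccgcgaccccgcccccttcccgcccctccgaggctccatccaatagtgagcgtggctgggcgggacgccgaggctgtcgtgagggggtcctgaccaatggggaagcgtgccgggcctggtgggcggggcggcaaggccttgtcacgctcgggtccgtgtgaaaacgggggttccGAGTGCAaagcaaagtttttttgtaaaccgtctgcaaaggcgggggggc
SLC30A2: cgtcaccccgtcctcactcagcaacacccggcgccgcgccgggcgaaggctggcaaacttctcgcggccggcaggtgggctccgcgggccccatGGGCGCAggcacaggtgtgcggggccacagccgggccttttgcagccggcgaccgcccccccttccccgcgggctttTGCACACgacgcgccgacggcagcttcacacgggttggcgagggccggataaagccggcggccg
SLC30A1 has 1 match in the bases shown and 2 in its 300-base window, and SLC30A2 has 2 and 3. The window of SLC39A10 has 0.

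Ziram brought no call among 13 tested copper genes, whose log2 fold changes ran from -0.24 to 0.13. The copper importer SLC31A1 stood at 45 and 43.4 CPM, the exporters ATP7A at 40.2 and 41.3 CPM and ATP7B at 24 and 22.4 CPM in DMSO and Ziram. At an unadjusted p under 0.05 edgeR counted 0 copper genes higher and 1 lower, DESeq2 and limma-voom called 0, and the 2-group fit called 1 lower, MT-CO1. Of 14 tested iron genes 1 was called: TFRC, the transferrin receptor, with 44.6, 48.6 and 50.9 CPM in DMSO and 76, 69.3 and 64.7 CPM in Ziram (1.45-fold, edgeR adjusted p = 0.00994), a call lost without DMSO replicate 1, DMSO replicate 2 or Ziram replicate 1 (highest adjusted p 0.141). The ferritin genes FTH1 (49.8 and 47.1 CPM) and FTL (975 and 984 CPM) were not called. FBXL5, which marks iron regulatory protein for degradation, stood at 120 and 93.8 CPM (log2 -0.35, edgeR adjusted p = 0.061), and was called lower by DESeq2, limma-voom and the 2-group fit (edgeR adjusted p = 0.00079 in the last).

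Of 36 tested NRF2 targets, 6 rose and 0 fell (median log2 fold change 0.09), against 0.408% higher and 0.122% lower over all genes (median 0.01). Among the called genes, SLC7A11 and SLC3A2 are also on the list of ATF4 targets and are counted there again. HMOX1, heme oxygenase, had 26, 23.9 and 24.3 CPM in DMSO and 251, 159 and 129 CPM in Ziram (7.27-fold, edgeR adjusted p = 3.54e-13). SLC7A11, the cystine importer, had 2.28, 4.6 and 4.02 CPM in DMSO and 52.1, 34.5 and 29.2 CPM in Ziram (10.3-fold, edgeR adjusted p = 1.05e-10). In both genes Ziram replicate 1 was the highest library, and all 3 Ziram libraries lay above all 3 DMSO libraries.

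The quinone reductase NQO1 went from 28.8 ± 2.47 to 62.4 ± 8.04 CPM (SD, n = 3; 2.16-fold), and malic enzyme ME1 from 4.92 ± 1.49 to 14.1 ± 3.35 CPM (2.8-fold). SLC3A2, the partner chain of SLC7A11, rose 1.54-fold and the NRF2-linked gene PIR 1.83-fold, with the PIR call lost in each of the 6 fits without 1 library (highest adjusted p 0.315). The glutathione and thioredoxin genes of the list named here were not called. GCLM, the modifier subunit of glutamate-cysteine ligase, stood at 13.2 and 19.5 CPM (edgeR adjusted p = 0.34), its catalytic subunit GCLC at 39.9 and 44.3 CPM, thioredoxin reductase TXNRD1 at 292 and 321 CPM and sulfiredoxin SRXN1 at 0.851 and 1.25 CPM. In the 2-group fit 8 of 34 members were higher and 2 lower. Of the 31 tested members of the glutathione and thioredoxin enzyme list 1 was called, CHAC1, which degrades glutathione and is an ATF4 target.

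Heat shock genes lay mostly above their vehicle level. Of 25 tested heat shock targets 7 rose and 0 fell, 22 had a log2 fold change above 0, and the median was 0.31. Of all 18852 genes, 0.408% were called higher and 0.122% lower, 9641 lay above 0, and the median was 0.01. HSPH1, an HSP110 chaperone, had 163, 154 and 158 CPM in DMSO and 385, 281 and 242 CPM in Ziram (1.91-fold, edgeR adjusted p = 2.08e-06). The small heat shock protein gene HSPB1 went from 11.6 ± 1.23 to 23.5 ± 3.48 CPM (SD, n = 3; 2.02-fold), and the mitochondrial chaperone HSPD1 from 382 ± 12.5 to 530 ± 63.1 CPM (1.39-fold).

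HSPA1B (1.71-fold), HSPA4L (1.7-fold), the co-chaperone FKBP4 (1.52-fold) and HSP90AB1 (1.25-fold) made up the rest of the 7. HSPA1A, the near-identical neighbour of HSPA1B, had too few reads to be tested. DNAJB1 (149 and 171 CPM), BAG3 (15.4 and 19.3 CPM) and HSP90AA1 (625 and 972 CPM, edgeR adjusted p = 0.11) were not called, and HSP90AA1 was among the 12 members called higher in the 2-group fit, which called 1 lower. Without Ziram replicate 1 there were 4 calls on the list, with HSPA1B, HSPA4L and HSP90AB1 lost. HSPA1B was also lost without any one DMSO library (highest edgeR adjusted p 0.29) and HSP90AB1 without DMSO replicate 2 or 3 or Ziram replicate 2 (highest 0.519).

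Outside the list, 2 called genes, picked out after their values were seen, are also known as heat shock genes. HSPA6, a stress-inducible HSP70 gene that is silent in most resting cells, had 0, 0 and 0.09 CPM in DMSO and 13.4, 9.99 and 4.73 CPM in Ziram, a read ratio of 229 with an exact 95% interval of 78.1 to 1112. SERPINH1, the collagen chaperone, went from 21.1 ± 3.18 to 43.1 ± 8.32 CPM (2.02-fold, edgeR adjusted p = 8.56e-05). The promoter of HSPA6 is shown for its 3 matches to the heat shock element, here the letters GAA and TTC in either order with any 2 bases between them, in capitals; 2 of them overlap (RefSeq, GRCh38.p14, chr1:161524290-161524539, plus strand).
HSPA6: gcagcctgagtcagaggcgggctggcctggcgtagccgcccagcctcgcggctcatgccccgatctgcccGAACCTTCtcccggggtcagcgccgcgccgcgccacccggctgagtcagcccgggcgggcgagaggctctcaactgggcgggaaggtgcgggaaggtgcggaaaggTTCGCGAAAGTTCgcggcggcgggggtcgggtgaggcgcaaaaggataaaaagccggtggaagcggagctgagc
The heat shock element was found in 13.7% of all promoters and in 11 of the 57 higher genes with an entry (19.3%), and in 2 of the 6 called members of the heat shock list with an entry. The antioxidant response element, here TGAC, any 3 bases and GC on either strand, was found in 13.6% of all promoters, in 15 of the 57 higher genes (26.3%) and in 3 of the 4 called NRF2 targets with an entry.

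Integrated stress response genes were shifted upward as a group. Of 39 tested ATF4 targets 13 rose and 0 fell, and all 39 had a log2 fold change above 0, with a median of 0.46. Of all 18852 genes, 0.408% were called higher and 0.122% lower, and 9641 lay above 0. SLC7A5, an importer of large neutral amino acids, had 33, 42.1 and 38.1 CPM in DMSO and 84.6, 71.4 and 87.7 CPM in Ziram (2.14-fold, edgeR adjusted p = 9.56e-05). Asparagine synthetase ASNS had 172, 174 and 191 CPM in DMSO and 315, 270 and 256 CPM in Ziram (1.57-fold, edgeR adjusted p = 3.44e-06). The secreted glycoprotein gene STC2 rose from 8.63 ± 3 to 26.4 ± 4.16 CPM (3.02-fold) and the glutathione-degrading CHAC1 from 8.39 ± 0.74 to 18.2 ± 3.69 CPM (2.15-fold).

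The called members came from several branches of the response: the transcription factor ATF3 (2.11-fold), the hormone gene GDF15 (2.4-fold), the serine and folate enzymes PSAT1 (1.33-fold), MTHFD2 (1.32-fold) and ALDH1L2 (1.55-fold), the amino acid transporters SLC7A11, SLC3A2 and SLC1A5 (1.61-fold), and the glycyl-tRNA synthetase GARS (1.26-fold). ATF4 itself (447 and 505 CPM), the death-linked factor DDIT3 (9.86 and 15 CPM, edgeR adjusted p = 0.21) and the feedback gene PPP1R15A (105 and 118 CPM) were not called. INHBE and PCK2, both known ATF4 targets outside the list and picked out after their values were seen, rose 1.94-fold and 1.65-fold. In the fits that left out 1 library at a time, GDF15 lost its call in all 6 (highest edgeR adjusted p 0.312), ALDH1L2 (0.502) and GARS (0.277) in 5, SLC1A5 (0.153) in 4, PSAT1 (0.143) and PCK2 (0.16) in 3, and ATF3 in 2, those without DMSO replicate 2 or Ziram replicate 1 (0.105). The list count was 7 without DMSO replicate 2 or Ziram replicate 1, 8 without DMSO replicate 3, 20 in limma-voom, 21 in DESeq2 or with library totals as the only scaling, and 29 in the 2-group fit.

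The endoplasmic reticulum unfolded protein response, a branch that shares ATF4, gave 0 calls of 21 genes, and 0 passed at an unadjusted p under 0.05 in edgeR; the 2-group fit, DESeq2 and limma-voom also called 0. The chaperone HSPA5 stood at 110 CPM in DMSO and 97.5 CPM in Ziram, HYOU1 at 411 and 361 CPM, DNAJB9 at 77.1 and 71.8 CPM and XBP1 at 123 and 124 CPM. The median log2 fold change of the list was -0.09.

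**Figure D3:**
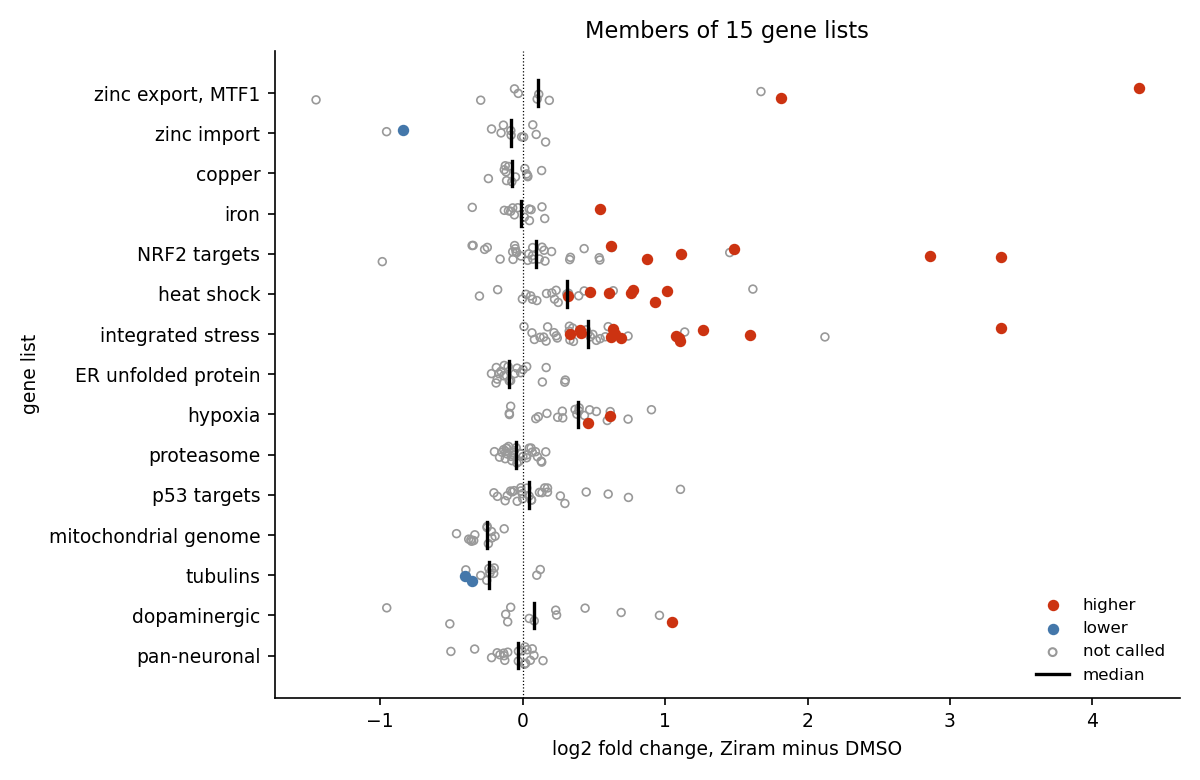
Log2 fold change of Ziram over DMSO for each tested member of 15 gene lists; filled red and blue points are called higher and lower, open points are not called, and the bar is the list's median. The integrated stress list lies wholly above 0 and the mitochondrial genome list wholly below 0, with 13 and 0 members called.

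Of 22 tested hypoxia targets 2 were called, both higher: BNIP3, a mitophagy receptor (116 ± 14.2 to 178 ± 17.8 CPM, 1.53-fold), and PFKFB3, a glycolysis regulator (75.4 ± 9.05 to 104 ± 2.65 CPM, 1.37-fold). In all, 19 of the 22 had a log2 fold change above 0 (median 0.39) and 15 were higher at an unadjusted p under 0.05. Of all 18852 genes, 0.408% were called higher, 9641 lay above 0 and 3.72% were higher at an unadjusted p under 0.05. VEGFA stood at 22.1 and 37.2 CPM (adjusted p = 0.052), hexokinase HK2 at 21.9 and 41.5 CPM (adjusted p = 0.2), PDK1 at 66.1 and 94.8 CPM (adjusted p = 0.078) and P4HA1 at 37.4 and 56.6 CPM (adjusted p = 0.087), all in edgeR. The count moved with the fit: 10 in the 2 groups alone, 8 in limma-voom or without the expression filter, 7 in DESeq2 or without DMSO replicate 3, and 0 without DMSO replicate 2 or without Ziram replicate 1. BNIP3 was lost only in those last fits (highest edgeR adjusted p 0.0684) and PFKFB3 without any library but DMSO replicate 3 (highest 0.396).

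Other called genes stood outside the lists. PLPP2, a lipid phosphatase, had 0.356, 0.323 and 0.09 CPM in DMSO and 3.53, 1.86 and 2.86 CPM in Ziram (11.5-fold, edgeR adjusted p = 0.0114), but lost its call without DMSO replicate 2 or 3 or Ziram replicate 1 (highest adjusted p 0.148). The semaphorin receptor gene PLXNA2 went from 3.73 ± 0.34 to 10.4 ± 0.9 CPM (2.76-fold), the GABA receptor subunit GABRD from 3.98 ± 0.12 to 10.9 ± 1.8 CPM (2.72-fold), and VGF, the precursor of secreted neuropeptides, from 5.76 ± 1.24 to 14.9 ± 2.98 CPM (2.61-fold). RAPGEFL1 rose 2.41-fold. These calls of PLXNA2, GABRD, VGF and RAPGEFL1 held when any 1 library was left out.

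Others rested on single libraries. RGS4, a brake on G protein signalling (2.25-fold), and the netrin receptor UNC5B (1.99-fold) were lost without DMSO replicate 2 or 3 or Ziram replicate 1 (highest edgeR adjusted p 0.127 and 0.141). Among dopaminergic markers 1 of 13 was called, the potassium channel gene KCNJ6, with 4.63, 3.76 and 3.67 CPM in DMSO and 11.1, 6.18 and 7.46 CPM in Ziram (2.06-fold, edgeR adjusted p = 0.0359). This call was lost without any library but Ziram replicate 2 (highest adjusted p 0.606). Of the immediate early genes 1 of 20 was called, ATF3, and of the MAP kinase feedback genes 1 of 18, the phosphatase DUSP5 (1.54-fold, lost without DMSO replicate 1 or 2 or Ziram replicate 1, highest adjusted p 0.606).

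Most of the 23 lower genes fell by less than 1.5-fold. NDNF, a secreted neurotrophic factor, had 6.12, 6.62 and 6.12 CPM in DMSO and 1.76, 2.71 and 2.28 CPM in Ziram, and fell by 1.47 ± 0.24 (SE) on the log2 scale (edgeR adjusted p = 0.000496). ALCAM, an adhesion molecule of growing axons, had 303, 295 and 262 CPM in DMSO and 155.5, 204 and 191 CPM in Ziram, and fell by 0.64 ± 0.09. The matrix glycoprotein gene TNC had 242, 257 and 259 CPM in DMSO and 176, 178 and 174 CPM in Ziram, and fell by 0.52 ± 0.09.

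NDNF, ALCAM, TNC and SLC39A10 were the 4 lower genes called in every fit without 1 library. SEZ6L fell by 0.79, the metalloproteinase PAPPA by 0.59, the guidance receptor UNC5D by 0.49, the secreted protein NELL2 by 0.41, the Wnt carrier WLS by 0.38, the calcium pump ATP2B4 by 0.37, the fatty acid ligase ACSL1 by 0.35 and N-cadherin CDH2 by 0.3 on the log2 scale. Without Ziram replicate 1 the calls of all 19 other lower genes were lost; the highest edgeR adjusted p over the fits without 1 library was 0.394 for SEZ6L, 0.442 for PAPPA, 0.0676 for WLS and 0.186 for ACSL1. With library totals in place of TMM scaling the median of all genes moved from 0.01 to 0.05 and 13 lower genes were called, PAPPA, UNC5D, ATP2B4, ACSL1 and CDH2 being among those lost.

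Of 12 tubulin genes 2 were called, both lower, against 0.122% of all genes called lower. TUBA1A, the main neuronal alpha-tubulin, had 11630, 11350 and 10740 CPM in DMSO and 8083, 8720 and 9552 CPM in Ziram, and fell by 0.36 ± 0.08 (SE) on the log2 scale (edgeR adjusted p = 0.0154). TUBB2B had 1471, 1502 and 1370 CPM in DMSO and 1001, 1053 and 1220 CPM in Ziram, and fell by 0.41 ± 0.09 (edgeR adjusted p = 0.0256). For both, the values approach each other most at DMSO replicate 3 and Ziram replicate 3, and the calls were lost without DMSO replicate 1 or 2 or Ziram replicate 1 or 2 (highest adjusted p 0.301 and 0.392). TUBB3 (54.7 and 46.9 CPM), TUBB (1632 and 1371 CPM, edgeR adjusted p = 0.093) and TUBA1B (307 and 266 CPM) were not called, and the 2-group fit called 5 of the list lower. Tubulin genes are close in sequence, and how reads shared by several of them were counted is not given.

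The 13 protein genes of the mitochondrial genome gave 0 calls in edgeR, although all 13 had a log2 fold change below 0, from -0.46 to -0.13. Of the 13, 6 were lower at an unadjusted p under 0.05 and 6 were called lower in the 2-group fit. Of all 18852 genes, 9641 lay above 0 and 2.76% were lower at an unadjusted p under 0.05. The 2-group fit called 223 of its 17143 genes lower. Their sum ran from 2844 to 2946 CPM in DMSO and from 2378 to 2477 CPM in Ziram. DESeq2 and limma-voom called none of them.

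Systems often studied with dithiocarbamates or in Parkinson disease gave no call in edgeR. These were the proteasome (0 of 31), ubiquitin activation and p97 (0 of 16), the aldehyde dehydrogenases (0 of 13) and the Parkinson disease genes (0 of 16), where the counts at an unadjusted p under 0.05 were 1, 0, 1 and 4, all lower. DESeq2, limma-voom and the 2-group fit each called 0 in the first 3 lists and 1 lower gene among the Parkinson disease genes. The proteasome members had log2 fold changes between -0.2 and 0.16. The ubiquitin-activating enzyme UBA1 stood at 405 and 397 CPM, and the mitochondrial aldehyde dehydrogenase ALDH2 at 57.5 and 55.4 CPM.

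No call was made either among the p53 targets (0 of 27), the BCL2 family (0 of 15), the NF-kB and chemokine genes (0 of 9), the cholesterol genes (0 of 22) or the autophagy and lysosome genes (0 of 28) in edgeR, with 4, 2, 0, 2 and 3 members at an unadjusted p under 0.05. DESeq2 and limma-voom each called 1 p53 target higher and 1 cholesterol gene lower and 0 in the other 3 lists; the 2-group fit called 2 p53 targets, 1 BCL2 family gene, 2 cholesterol genes, 1 autophagy gene and 0 NF-kB genes. CDKN1A, the p53-driven inhibitor of the cell cycle, stood at 18.7 and 25.5 CPM (edgeR adjusted p = 0.27), and was called in the 2-group fit (adjusted p = 0.003). Markers of other cells gave no call in edgeR: neural precursor (0 of 11), cycling (0 of 21), astrocyte and oligodendrocyte (0 of 11), fibroblast, endothelial and microglial (0 of 8) and other neuron types (0 of 9), with 2, 0, 0, 0 and 2 at an unadjusted p under 0.05. DESeq2 and limma-voom called 0 of them, and the 2-group fit 1 precursor marker. The summed cycling markers ran from 1123 to 1194 CPM in DMSO and from 1186 to 1269 CPM in Ziram, and those of astrocytes and oligodendrocytes from 216 to 231 and from 210 to 237 CPM, with GFAP and MOG too low to be tested.

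Ziram replicate 1 stood at the far end of the response. It was the highest of the 3 Ziram libraries for 65 of the 77 higher genes, or 55 of the 67 outside the metallothioneins, and the lowest for 19 of the 23 lower genes. Over all genes it was the highest in 30.9% and the lowest in 31%. The median log2 ratio to the DMSO mean over the 67 genes was 1.06 in Ziram replicate 1, 0.75 in replicate 2 and 0.81 in replicate 3. The genes were called with these same libraries, so these are descriptions, and a difference in exposure or handling between the replicates was not tested. Among the called zinc genes, SLC30A1 and SLC30A2 were also highest in replicate 1, SLC30A1 within a range of 88 to 90.9 CPM, whereas SLC39A10 was lowest in replicate 3.

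**Figure D4:**
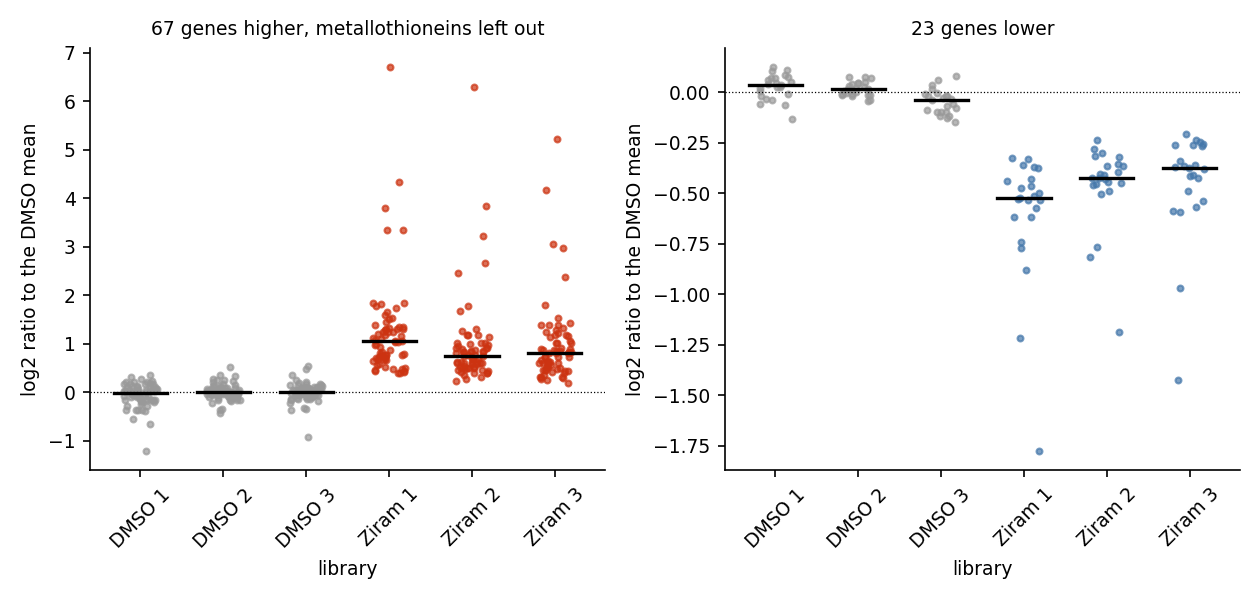
Log2 ratio of each called gene to its DMSO mean, with 0.1 CPM added to both, in each of the 6 libraries, for the 67 higher genes outside the metallothioneins (left) and the 23 lower genes (right); bars are medians. The DMSO medians lie within 0.04 of 0, and the Ziram replicate 1 median is the farthest from 0 in both panels, at 1.06 and -0.52.

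Direct tests of Ziram against the other 6 toxicants were made in the same fit, at the single dose of each, and the doses differ. They called 205 genes against Methyl_mercury (1.09% of those tested), 134 against 6-HD (0.711%) and 115 against Paraquat (0.61%), and 1863 against Rotenone (9.88%), 2739 against MPP (14.5%) and 7716 against MS275 (40.9%). These counts moved with single libraries: the Methyl_mercury count was 49 without Ziram replicate 1, 50 without Methyl_mercury replicate 2 and 240 without Methyl_mercury replicate 3, and the 6-HD and Paraquat counts were 48 and 60 without Ziram replicate 1. Genes higher in Ziram made up 0.743% of those tested against Methyl_mercury, 5% against Rotenone, 6.84% against MPP, 0.546% against 6-HD, 0.504% against Paraquat and 21.8% against MS275. Genes lower in Ziram made up 0.345%, 4.89%, 7.69%, 0.164%, 0.106% and 19.1% in the same order. All these tests use the same 3 Ziram libraries.

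The summed metallothionein level was higher in Ziram than in any other treatment. The family stood at 1296 CPM or more in Ziram, at 40.9 to 44.8 CPM in Methyl_mercury, at 57.8 CPM in Rotenone replicate 1 and at 9.1 to 24 CPM in each of the other 14 treated libraries. MT1G, MT2A, MT1E, MT1X and MT1F were each called higher in Ziram than in all 6 toxicants, and of the 10 called family members only MT1A against Paraquat was not; among these 5 genes, MT1F against Methyl_mercury had the smallest difference (147, 117 and 146 CPM against 24.7, 21.7 and 23.6 CPM, log2 2.55, edgeR adjusted p = 3.47e-12). SLC39A10 was lower in Ziram than in all 6, with log2 differences from -0.97 (Rotenone) to -0.66 (MS275), and NDNF, ALCAM, SEZ6L and ACSL1 were also lower than in all 6.

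Methyl_mercury, itself a thiol-binding metal compound, was close to Ziram, or above it, in some of these genes. SLC30A1 had 70.8, 78.7 and 62.4 CPM there, and its difference from Ziram was not called (log2 0.34 ± 0.13, adjusted p = 0.25 in edgeR). NQO1 had 80.2, 91.2 and 79.5 CPM in Methyl_mercury, above all 3 Ziram libraries (log2 of Ziram minus Methyl_mercury -0.42, edgeR adjusted p = 0.1). ME1 was not called either (log2 0.56, edgeR adjusted p = 0.31). HMOX1, with 67.2, 74.2 and 81.8 CPM in Methyl_mercury, was higher in Ziram (log2 1.27, edgeR adjusted p = 1.03e-05), as were SLC7A11 (log2 2.66), SLC30A2 (log2 2.34) and HSPH1 (log2 0.55, adjusted p = 0.00691).

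Several of the other genes higher in Ziram than in DMSO were as high or higher elsewhere. MS275 gave higher levels than Ziram of SLC7A5 (118, 127 and 108 CPM, log2 of Ziram minus MS275 -0.53, edgeR adjusted p = 0.00653), GABRD, GDF15, UNC5B and CNN2. SLC7A11 in MPP stood at 13.8, 15.3 and 20.1 CPM, below Ziram (log2 1.24, edgeR adjusted p = 0.000235) and above DMSO by its values. INHBE was lower in Ziram than in MPP, and ELFN2 lower than in Rotenone, MPP and MS275. HSPA6, HSPH1, HSPB1, ASNS, STC2 and SERPINH1 were higher in Ziram than in each of the 6 toxicants.

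**Figure D5:**
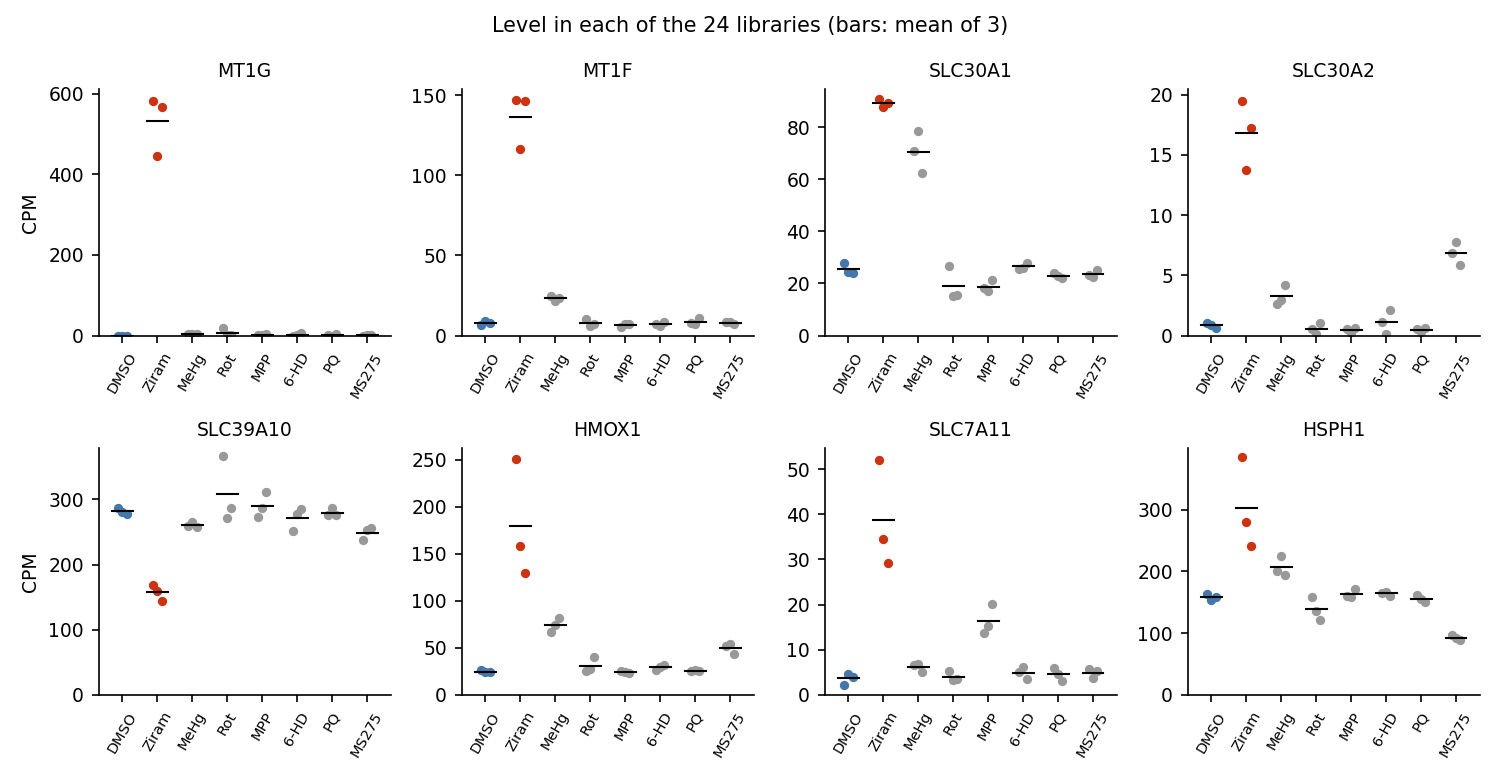
Level in CPM, on linear axes from 0, of 8 genes in all 24 libraries, with points for libraries and bars for the mean of 3; MeHg is Methyl_mercury, Rot Rotenone and PQ Paraquat. MT1G, MT1F, SLC30A2, HMOX1, SLC7A11 and HSPH1 are highest and SLC39A10 lowest in Ziram, while the Methyl_mercury libraries of SLC30A1 lie below those of Ziram without a called difference.

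Reads from overlapping genes could not be separated: 27 of the 100 called genes overlap an annotated gene on the opposite strand, among them SLC7A11, NQO1, SLC7A5, FKBP4, HSPD1, TNC and WLS, and the strand setting of the counting is not given in the sources used here.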

How the data were processed

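PolyA-selected, ribosome-depleted RNA of 24 LUHMES cultures was sequenced as TruSeq libraries on an Illumina HiSeq instrument, per the labels' protocols. The deposited values used here are raw counts of reads per gene; the submitters' processing notes name STAR, HTSeq, DESeq and GRCh38, while their versions, the annotation and the strand setting are unstated there. The authors' normalized table was not used. All 24 count columns matched a sample title and 0 columns had no sample.

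Genes were kept by edgeR's expression filter (18852 of 58051). Counts were scaled by TMM and fitted with edgeR 4.0.16 (R 4.3.3) as 8 groups of 3 libraries with 16 residual degrees of freedom. The quasi-likelihood test with Benjamini-Hochberg adjustment over all tested genes was used at 0.05, and a called gene is one past it. Libraries held 9.69 to 46.9 megareads. For genes with no DMSO read, folds were taken against a floor of 3 reads over the group, and for 1 to 3 reads the ratio of reads is given with an exact 95% interval; both cover counting error only, since reads without molecular identifiers are not independent molecules. Gene positions come from GENCODE 29, matched by gene ID for 57447 genes. Promoters come from RefSeq (GRCh38.p14).

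Named genes were up to 40 higher and 40 lower called genes by fold whose libraries did not overlap and whose higher group averaged 2 CPM or more, all metallothioneins with a read, and from each of 31 lists the called members and the 4 of smallest p. Genes named outside this rule are given as examples of their list. Some genes that the rule names are not reported here. The comparison, its genes and the lists were chosen with earlier results of these data known. Alternatives were a fit of the 2 groups alone, other scaling and filters, DESeq2 1.42.0, limma-voom (limma 3.58.1), robust dispersions, a replicate block and leaving out each library. The fit was tested on simulated data for Ziram against DMSO with 18262 genes. Each gene had the same mean and dispersion in all groups, and only Ziram was changed, at genes averaging 1 CPM or more. Of the genes given a log2 change of 0.5 it called 35 of 70, at 1 it called 47 of 59 and at 2 it called 69 of 71. There were 11 false calls among 162. The real groups differ in spread and level, so these rates need not hold for the real data.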

Additional observations from a re-analysis of the deposited data

How the results depend on the processing

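The count of 100 genes (77 higher, 23 lower) moved with the fit. It was 586 (363 and 223) with the 2 groups fitted alone, where 17143 genes were tested, 184 (131 and 53) in DESeq2 and 160 (123 and 37) without the filter on low counts. Lower genes numbered 13 with library totals as the only scaling and 42 in limma-voom. Leaving out 1 library gave 40 to 74 genes, 36 to 61 higher and 4 to 16 lower, with fewer samples. Among the fits of all 24 libraries, RLE scaling, the stricter filter, robust dispersions and the replicate block left the count and both its directions within 1.5 times. The cause of the other differences was not tested.

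No shared effect of the replicate number was seen between DMSO and Ziram. Deviations of same-numbered libraries of these groups had correlations of -0.04, -0.02 and -0.06. With 3 libraries in a group, this cannot show whether same-numbered cultures were handled together. The other groups were not checked. With the replicate block 81 genes were called over all 24 libraries, and 445 (306 higher, 139 lower) with the 2 groups alone. In these deviations no DMSO library correlated best with the Ziram library of its own number. In the levels themselves every DMSO library correlated best with Ziram replicate 2 (0.981, 0.988 and 0.99 for DMSO replicates 1, 2 and 3). Only DMSO replicate 2 was thereby matched to its own number.

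With only their own 6 libraries fitted, Ziram versus Rotenone gave 615 genes in place of 1863, Ziram versus MPP 4875 in place of 2739 and Ziram versus Paraquat 716 in place of 115. Without 1 library the counts ran from 49 to 240 for Methyl_mercury, 983 to 2646 for Rotenone, 1661 to 1992 for MPP, 48 to 146 for 6-HD, 60 to 97 for Paraquat and 6307 to 7569 for MS275. Of the 100 called genes, 60 lost significance without Ziram replicate 1, 58 without DMSO replicate 2 and 19 under the block over all libraries. Among the 196 named genes, called or not, the only change of sign was that of RELA, an uncalled NF-kB gene. Its log2 fold change of 0.09 ran from -0.023 (without Ziram replicate 3) to 0.16 (without Ziram replicate 2). Genes with few DMSO reads have no precise fold at this depth.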

Other observations

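The fit of the 2 groups alone called 486 genes beyond the 100, of which 286 were higher and 200 lower in Ziram, and 43 higher and 3 lower were at 2-fold or more. Among them were genes of glucose and nucleotide metabolism, here given as examples chosen after their values were seen. HK2, a hexokinase, stood at 21.9 CPM in DMSO and 41.5 CPM in Ziram, and AK4, a mitochondrial adenylate kinase, at 19.7 and 34 CPM. On the lower side PAK5, a brain kinase, stood at 22.7 and 15.3 CPM. That fit estimates the spread from 6 libraries only, and the median SD on the log2 CPM scale was lower in these groups, at 0.141 and 0.127, than in the 6 toxicant groups, at 0.157 to 0.29.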
